A study of Mus musculus with 18 samples.

Results

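The subunit genes of the ionotropic and metabotropic glutamate receptors and of the GABA-A receptors were followed through 18 RNA-seq libraries of mouse thalamus. The members are the genes of the deposited count table whose symbols name an AMPA (Gria), delta (Grid), kainate (Grik), NMDA (Grin) or metabotropic (Grm) glutamate receptor subunit, or a GABA-A receptor subunit (Gabr). There were 45 such genes among the 50559 in the table. Of these, 40 passed the filter on low counts. Each of the 3 groups held 6 libraries of wild-type mice. The intervene group received Coll IV and remodelin, the model group received Coll IV, and the control group received saline. Remodelin inhibits NAT10, an RNA acetyltransferase, and thalamic hemorrhage is the condition named in the study's title. The labels do not expand Coll IV and give no age, sex, dose, time after treatment or processing date, nor whether each library is 1 animal.

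Fast excitation in the brain runs through glutamate-gated cation channels built from AMPA, kainate and NMDA subunits, while metabotropic receptors act through G proteins. Fast inhibition runs through GABA-A receptors, which are pentameric chloride channels that usually combine alpha, beta and gamma subunits. Where delta takes the place of gamma, the receptor lies outside the synapse and carries tonic inhibition, and in relay neurons of the thalamus such receptors typically pair the alpha 4 and delta subunits. Subunit composition differs between brain regions, so subunit transcripts also carry information on which tissue a sample holds.

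The promoters of 6 members are printed first, as RefSeq records them for GRCm38.p6. The deposited values refer to GRCm39, so these coordinates belong to the RefSeq table only. Each window runs 5′ to 3′ on the gene's own strand, from 250 bases before to 50 bases after the start. Gabra4 (chr5:71658259-71658558, minus strand) and Gabrb1 (chr5:71657671-71657970, plus strand) are shown because they are neighbours whose starts overlap. Gabrq (chrX:72824928-72825227, plus strand) and Gabre (chrX:72274672-72274971, minus strand) had the largest differences between libraries. Grin2d (chr7:45866632-45866931, minus strand) and Grik5 (chr7:25072320-25072619, minus strand) had the lowest p-values there and moved in opposite directions. Capitals mark each GC box, GGGCGG on either strand.
Gabra4: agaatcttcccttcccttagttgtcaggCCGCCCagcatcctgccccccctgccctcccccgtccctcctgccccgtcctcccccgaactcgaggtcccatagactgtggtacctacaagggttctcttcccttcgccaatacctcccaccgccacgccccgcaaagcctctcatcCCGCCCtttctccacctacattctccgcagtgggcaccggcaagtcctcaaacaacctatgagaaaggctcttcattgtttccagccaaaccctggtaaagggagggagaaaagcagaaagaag
Gabrb1: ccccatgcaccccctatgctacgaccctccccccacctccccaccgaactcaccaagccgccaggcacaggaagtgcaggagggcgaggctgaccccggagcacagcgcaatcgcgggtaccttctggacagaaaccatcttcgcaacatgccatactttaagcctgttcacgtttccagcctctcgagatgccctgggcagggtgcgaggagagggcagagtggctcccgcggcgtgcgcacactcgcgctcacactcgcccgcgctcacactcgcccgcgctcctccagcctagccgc
Gabrq: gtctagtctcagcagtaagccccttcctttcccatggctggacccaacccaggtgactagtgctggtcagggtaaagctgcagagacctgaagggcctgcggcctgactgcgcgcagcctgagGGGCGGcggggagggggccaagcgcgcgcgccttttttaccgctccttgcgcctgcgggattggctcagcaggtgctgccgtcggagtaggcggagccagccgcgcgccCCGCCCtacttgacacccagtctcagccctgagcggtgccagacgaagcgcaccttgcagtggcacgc
Gabre: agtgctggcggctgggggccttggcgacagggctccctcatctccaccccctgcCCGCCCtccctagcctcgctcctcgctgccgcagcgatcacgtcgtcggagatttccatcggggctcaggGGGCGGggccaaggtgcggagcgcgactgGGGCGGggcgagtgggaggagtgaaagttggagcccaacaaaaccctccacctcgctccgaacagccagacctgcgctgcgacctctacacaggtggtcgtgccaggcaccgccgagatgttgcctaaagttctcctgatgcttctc
Grin2d: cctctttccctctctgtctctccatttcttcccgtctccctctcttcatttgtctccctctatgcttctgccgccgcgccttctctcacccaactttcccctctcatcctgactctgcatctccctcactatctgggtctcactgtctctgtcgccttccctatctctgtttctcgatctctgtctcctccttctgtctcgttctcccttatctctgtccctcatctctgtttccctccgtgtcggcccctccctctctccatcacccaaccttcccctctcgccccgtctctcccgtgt
Grik5: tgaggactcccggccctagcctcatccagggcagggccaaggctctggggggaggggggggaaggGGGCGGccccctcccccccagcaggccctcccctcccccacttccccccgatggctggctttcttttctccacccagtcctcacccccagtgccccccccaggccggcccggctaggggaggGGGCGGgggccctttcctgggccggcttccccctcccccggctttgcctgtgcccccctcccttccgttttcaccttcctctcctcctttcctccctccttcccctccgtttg

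The windows of Gabra4, Gabrq and Grik5 each held 2 GC boxes and that of Gabre held 3, while those of Gabrb1 and Grin2d held none. A promoter was listed for 30 of the 45 members, in 37 windows, and 45.9% of these windows held a GC box, against 35.7% of all 32851 windows of this length. Other motifs were searched on both strands as well. TATAAA was present in 10.8% of the members' windows and 13.6% of all windows. ATCAAAG, a TCF/LEF motif, was present in 5.41% of the members' windows and 3.73% of all. TGACGTCA, a cAMP response element, was present in 0 of the members' windows and 1.79% of all. None of these other motifs lay in the 6 windows printed here.

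Library totals ran from 28481225 to 118461420 counts, and the members together took 0.228 to 0.365% of them. The libraries numbered 4 to 6 stood apart from those numbered 1 to 3. This division was noticed in earlier work on these data and the labels do not mention it, so its tests describe these libraries and not a stated condition. Tcf7l2, a transcription factor of thalamic neurons, stood at 48.6, 32.8 and 36.7 CPM in intervene libraries 4 to 6, 8.01, 10.5 and 4.80 in model libraries 4 to 6, and 4.68, 3.82 and 5.05 in control libraries 4 to 6. In libraries 1 to 3 it ranged from 60.7 to 96.4 CPM in intervene, 53.6 to 144 in model and 98.7 to 102 in control. The summed level of 7 thalamic neuron genes was 205 to 286 CPM in intervene libraries 4 to 6, 89.9 to 116 in model libraries 4 to 6 and 69.4 to 79.2 in control libraries 4 to 6, against 239 to 442 in the 9 libraries numbered 1 to 3. The intervene range overlaps that of the 9 libraries, although it lies below the 315 to 377 CPM of intervene libraries 1 to 3. The summed level of 7 cortical and hippocampal neuron genes ran the other way, at 2247 to 6199 CPM in libraries 4 to 6 against 341 to 3278 in libraries 1 to 3, ranges that overlap. Control and model libraries 4 to 6 thus had little of this thalamic marker although all libraries are labelled thalamus. In these bulk samples, fewer cells of a type and less RNA per cell cannot be told apart.

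Per gene length, Gria1, an AMPA receptor subunit, was among the most abundant members. It averaged 23.1 ± 6.16 FPKM in intervene, 23.1 ± 6.59 in model and 21.8 ± 5.56 in control (SD, n = 6 each). Grin1, which every NMDA receptor needs, averaged 18.3 ± 2.90 FPKM in intervene, 21.2 ± 2.18 in model and 20.1 ± 4.79 in control. The SDs within groups of 2.18 to 6.59 FPKM were of similar size to the gap between these 2 genes, so their order is not settled beyond that spread.

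Gabrd, the delta subunit of tonic inhibition, and Gabra4, its usual alpha partner in thalamic relay cells, ranked 7 and 8 with 11.1 and 10.3 FPKM over all libraries. Both were detected in 18 of 18 libraries. The spread of Gabrd was wide, at 8.09 ± 3.31 FPKM in intervene, 12.9 ± 8.02 in model and 12.3 ± 7.48 in control (SD, n = 6 each).

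At the other end, 5 members did not pass the filter. Gabra6, the alpha subunit of cerebellar granule cells, had 0 to 68 counts, with 68 in intervene replicate 1 and 16 or fewer elsewhere. Gabrr1 and Gabrr3, rho subunits known from the retina, had at most 26 and 6 counts, and Grm6, the receptor of retinal ON bipolar cells, had at most 6. Gabrp, a pi subunit found mainly outside the brain, had 0 counts in 18 of 18 libraries. A count of 0 allows up to 3 counts per library if counts are independent, which covers counting error only. Gabrr1 and Grm6 had only even counts, so that independence is not certain and the cause was not tested. Among members that passed the filter, Gabrq had even counts in every library except control replicate 1, which had 2273.

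Within families, the alpha subunits summed to 56.7 ± 6.59 FPKM in intervene, 64.0 ± 9.73 in model and 73.7 ± 16.5 in control (SD, n = 6 each). Over all libraries Gabra3 made 20.8% of that sum and Gabra4 15.7%. Gabra3 is the alpha subunit of the thalamic reticular nucleus and of many cortical cells. Gabrb2 made 34.9% of beta subunits. Among AMPA subunits Gria1 made 55.0%, Gria2 17.1%, Gria3 16.7% and Gria4 11.3%, while Grin1 made 70.1% of NMDA subunits and Grik5 60.7% of kainate subunits. Among metabotropic receptors the largest shares were Grm2 with 30.4% and Grm5 with 24.3%. These shares compare transcript levels per length, not protein.

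**Figure D1:**
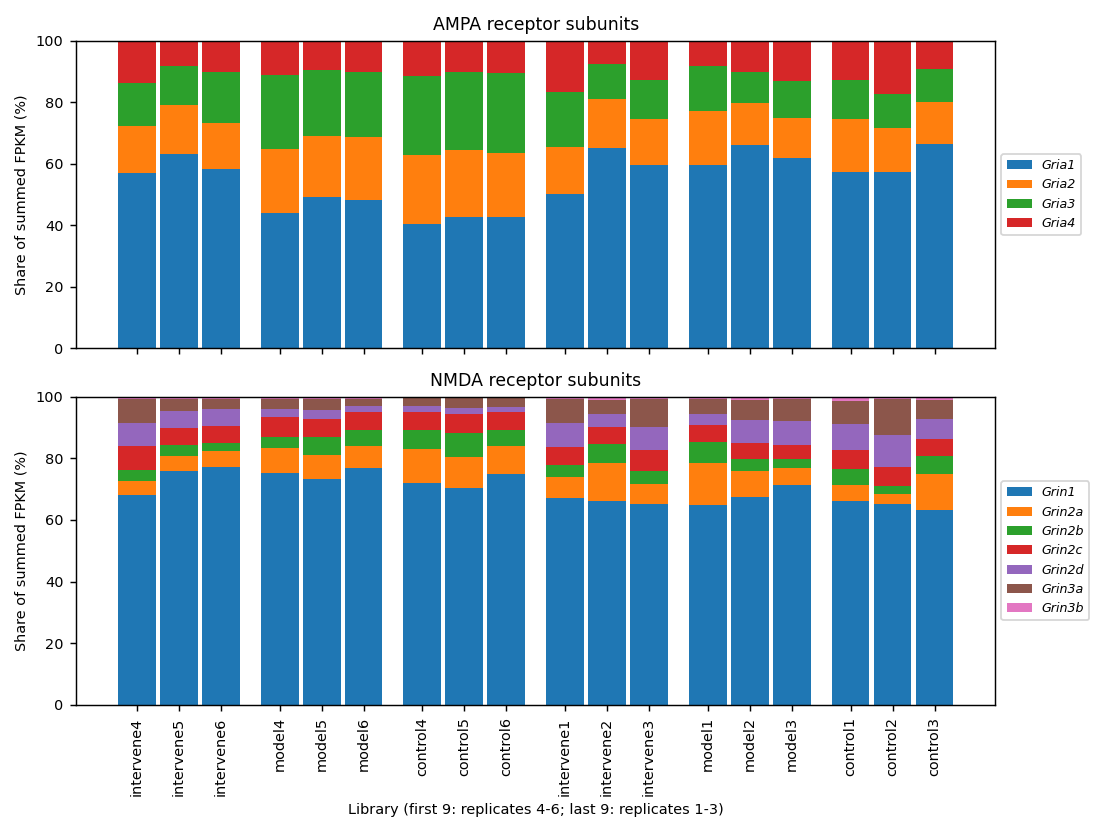
Share of the summed FPKM (percent, vertical axis) taken by each AMPA and NMDA subunit in each of the 18 libraries (horizontal axis), with replicates 4 to 6 first and replicates 1 to 3 after them. Gria1 made 59.5% of AMPA subunits in intervene replicates 4 to 6, 47.1% in model replicates 4 to 6 and 42.0% in control replicates 4 to 6, and 60.4% in control replicates 1 to 3.

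The first question of the design is whether Coll IV changed these genes. No member was called between model and control over all 6 libraries of each group, and neither was any of the 18452 genes tested (0% called at an adjusted p under 0.05 in edgeR's quasi-likelihood test). The fit by group had no term for the replicate set, so the division between the sets adds to its spread. A missing call there does not show that a gene was unchanged. At an unadjusted p under 0.05 there was 1 of 40 members and 310 of all genes. No member had model and control libraries that did not overlap, against 0.0488% of all genes with model higher throughout and 0.0813% with model lower. The median log2 fold change of the members was -0.10, beside 0.00 over all genes.

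Gabrr2, a rho subunit, had the lowest p. It stood at 1.72 to 5.30 CPM (median 2.54) in model, against 1.23 to 2.76 CPM (median 1.86) in control, a log2 fold change of 0.64 ± 0.28 (SE, n = 6 each, adjusted p = 1). Gria4, an AMPA subunit abundant in thalamic neurons, stood at 48.4 to 61.3 CPM (median 53.9) in model and 54.7 to 70.5 CPM (median 63.0) in control, a log2 fold change of -0.20 ± 0.12 (adjusted p = 1). Both pairs of ranges overlap. Gabrb2 had a log2 fold change of -0.15 ± 0.10 and Gabra3 of -0.28 ± 0.21. Gabra4 had a log2 fold change of -0.21 ± 0.27 and Gabrd of 0.08 ± 0.52, each with an adjusted p of 1.

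The second question is whether remodelin changed them after Coll IV. In the same fit no member was called between intervene and model, with 0% of all genes called, 0 of 40 members at an unadjusted p under 0.05 and 531 of all genes there. Again no member had libraries that did not overlap, against 0.152% of all genes with intervene higher throughout and 0.0596% with intervene lower. The median log2 fold change was -0.09 over the members and 0.00 over all genes.

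Gria2, the subunit whose edited form makes AMPA receptors impermeable to calcium, stood at 140 to 216 CPM (median 159) in intervene, against 131 to 248 CPM (median 207) in model. Its log2 fold change was -0.27 ± 0.19 (SE, n = 6 each, adjusted p = 0.988). Grin2b and Grin2a, the NMDA subunits of forebrain principal neurons, had log2 fold changes of -0.43 ± 0.30 and -0.47 ± 0.37. Gria3 had -0.35 ± 0.27, and its intervene libraries lay within a narrow 65.4 to 79.6 CPM while the model libraries spread over 55.5 to 121 CPM. Gabra4 had a log2 fold change of -0.28 ± 0.27 and Gabrd of -0.63 ± 0.52. The ranges of the 2 groups overlap for all of these.

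Between intervene and control, no member was called, and 0% of all genes were. At an unadjusted p under 0.05 there were 3 of 40 members and 1551 of all genes. No member had libraries that did not overlap, against 0.369% of all genes with intervene higher throughout and 0.119% with intervene lower. The median log2 fold change was -0.14 over the members and 0.00 over all genes. Gabrb2, a beta subunit abundant in the thalamus, stood at 144 to 188 CPM (median 148) in intervene and 139 to 227 CPM (median 191) in control, a log2 fold change of -0.27 ± 0.10 (SE, n = 6 each, adjusted p = 0.536). Gabra3 had a log2 fold change of -0.53 ± 0.21, Grin2b of -0.65 ± 0.30 and Gria3 of -0.55 ± 0.27. Gabra4 and Gabrd had -0.50 ± 0.27 and -0.55 ± 0.52. The 3 group comparisons share libraries, so they do not bear on each other independently.

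**Figure D2:**
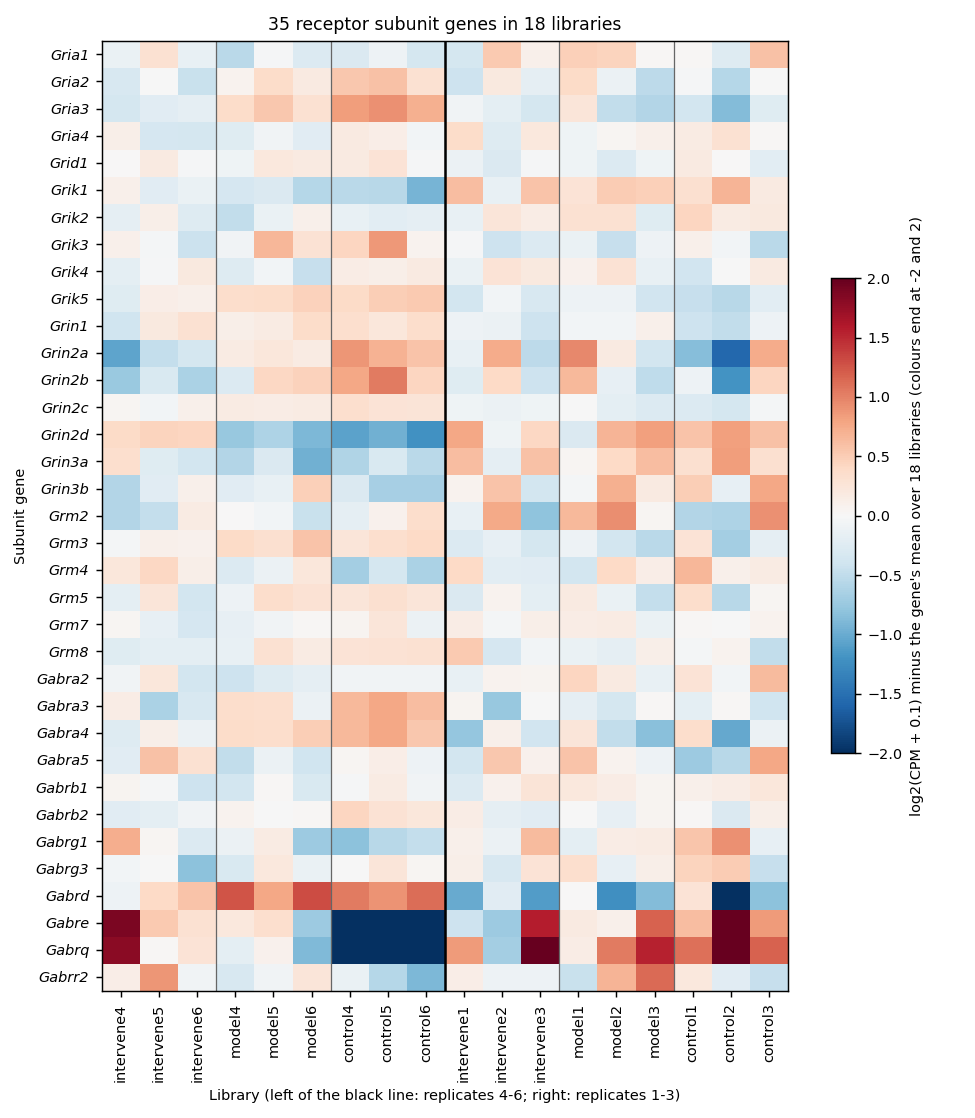
Level of 35 receptor subunit genes (vertical axis) in 18 libraries (horizontal axis), coloured by log2(CPM + 0.1) minus the gene's mean over the libraries. Gabrq and Gabre are deep blue in control replicates 4 to 6, at 0.513 to 0.763 CPM and 0.0664 to 0.224 CPM, and Gabrd is red in model and control replicates 4 to 6.

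Within the control group the members split along the replicate sets. Of 40 members, 12 rose (30%) and 10 fell (25%) in libraries 4 to 6 relative to libraries 1 to 3, a total of 55% beside 38.2% of all genes (18.6% higher and 19.6% lower). Libraries did not overlap for 13 members with 4 to 6 higher and 11 with 4 to 6 lower, beside 25.4% and 26.6% of all genes. Leaving out each library in turn moved the count of called members between 15 and 24.

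Among GABA-A subunits in control, Gabra3 and Gabrb2 rose. Gabra3 stood at 169.9, 184 and 166 CPM in control libraries 4 to 6, all above the 94.7, 110.3 and 82.0 CPM of control libraries 1 to 3. Its log2 fold change was 0.86 ± 0.21 and that of Gabrb2 was 0.36 ± 0.11 (SE, n = 3 each, adjusted p = 0.00542 and 0.0205).

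Gabrd also rose in control libraries 4 to 6. It stood at 75.0, 67.8 and 79.1 CPM there, against 43.7, 7.48 and 20.5 CPM in control libraries 1 to 3, a log2 fold change of 1.61 ± 0.48 (SE, n = 3 each, adjusted p = 0.0183). The sets do not overlap, although libraries 1 to 3 spread more widely than the gap between the sets. Without control replicate 3 the change was 1.51 with an adjusted p of 0.0576, and without control replicate 1 it was 2.41. Gabra4 stood at 128, 139 and 118 CPM in control libraries 4 to 6, against 104, 40.1 and 75.3 CPM in control libraries 1 to 3. Its log2 fold change of 0.81 ± 0.31 narrowly missed the threshold (adjusted p = 0.0519), but it passed in DESeq2 and limma, in DESeq2 with 0.81 (adjusted p = 0.0152) and without control replicate 1 with 1.16 (adjusted p = 0.0138). With no filter on low counts its adjusted p was 0.14.

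Gabrq and Gabre, the theta and epsilon subunits known from the hypothalamus and brainstem, fell most in control. Its nearly always even counts leave the independence of the counts of Gabrq uncertain, and the effect on its tests was not tested. Gabrq stood at 0.513, 0.763 and 0.598 CPM in control libraries 4 to 6, which rest on 16, 44 and 18 counts. In control libraries 1 to 3 it stood at 18.6, 49.5 and 19.7 CPM. That is a log2 fold change of -5.50 ± 0.83 (SE, n = 3 each, adjusted p = 0.000275). Gabre stood at 0.224, 0.139 and 0.0664 CPM in control libraries 4 to 6, which rest on 7, 8 and 2 counts, and at 2.38, 8.57 and 2.81 CPM in control libraries 1 to 3, a log2 fold change of -4.96 ± 0.85 (adjusted p = 0.000513). Without control replicate 2 the changes were -4.89 for Gabrq and -4.14 for Gabre. Beside them, 4 of 5 hypothalamic marker genes fell as well, and the summed level of the 5 was 0.609 to 1.43 CPM in control libraries 4 to 6 against 241 to 905 CPM in control libraries 1 to 3. The part of hypothalamic tissue in these results was not tested. Gabrg1, a gamma subunit prominent in glia, also fell, by 1.12 on the log2 scale.

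**Figure D3:**
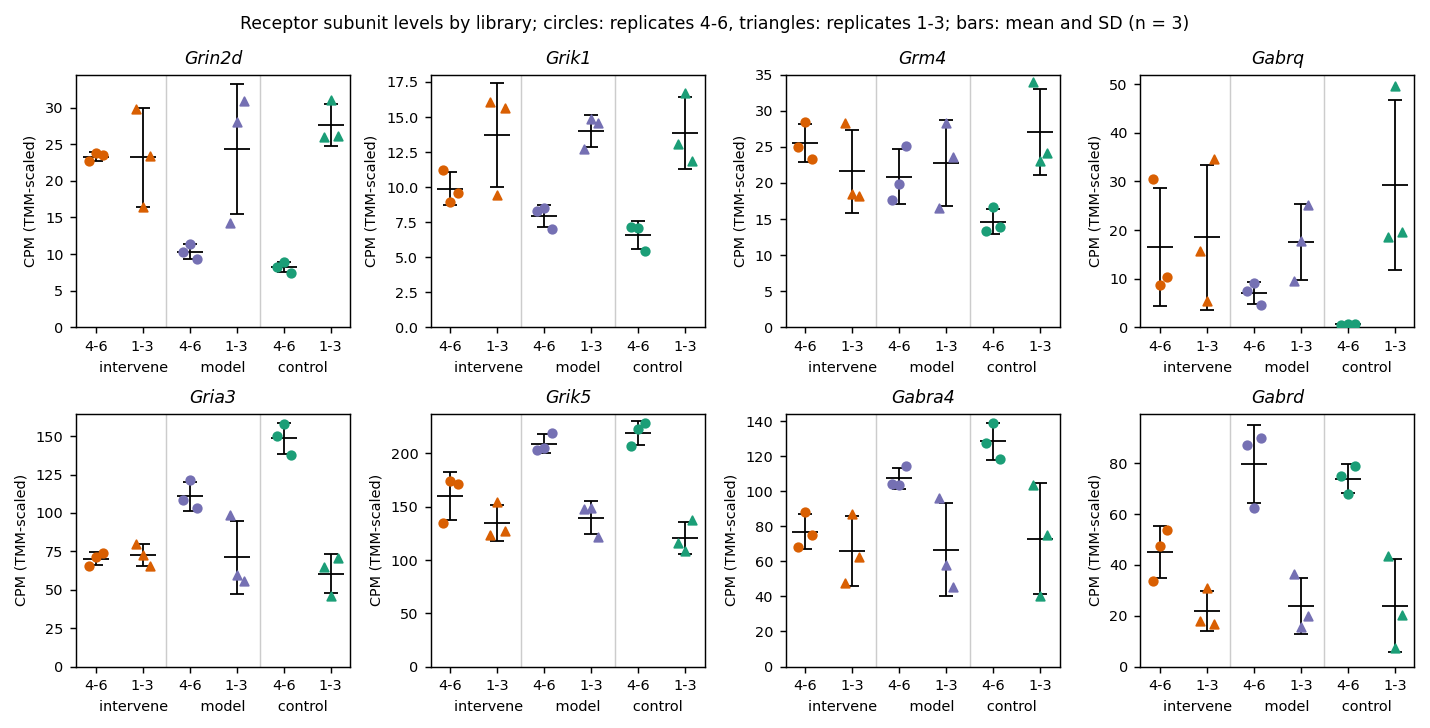
Level of 8 subunit genes (CPM, vertical axis) in each library, with replicates 4 to 6 as circles and replicates 1 to 3 as triangles in each group, and bars for the mean and SD (n = 3). Gria3 and Grik5 are highest in control and model replicates 4 to 6, Grin2d and Grik1 are lowest there, and Gria3 at 65.7 to 74.1 CPM and Grin2d at 22.7 to 23.8 CPM in intervene replicates 4 to 6 lie within the range of replicates 1 to 3, while Grik5 at 174 and 171.5 CPM in intervene replicates 5 and 6 lies above it.

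Among ionotropic glutamate receptors in control, Grin2d had the lowest p. This NMDA subunit, known from the diencephalon, brainstem and interneurons, stood at 8.30, 8.88 and 7.47 CPM in control libraries 4 to 6, against 26.0, 31.0 and 26.1 CPM in control libraries 1 to 3, a log2 fold change of -1.75 ± 0.24 (SE, n = 3 each, adjusted p = 7.46e-05). Gria3, an AMPA subunit, rose to 150, 158 and 138 CPM in control libraries 4 to 6, against 64.8, 46.03 and 70.6 CPM in control libraries 1 to 3, a log2 fold change of 1.30 ± 0.19 (adjusted p = 0.000103). For both genes the sets are far apart relative to the spread within them. Gria2 rose by 0.66 ± 0.21 on the log2 scale (adjusted p = 0.0227), while Gria1 and Gria4 were not called, at -0.40 and -0.08.

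The NMDA family was divided. Grin1 and Grin2c rose by 0.64 ± 0.15 and 0.51 ± 0.09 on the log2 scale (SE, n = 3 each, adjusted p = 0.00391 and 0.000529). Grin2c is a subunit of cerebellar granule cells that thalamic neurons and astrocytes also carry. Besides Grin2d, the subunits Grin3a and Grin3b fell by 0.99 and 1.02, both of which lower calcium entry when they join the receptor. Grin2a and Grin2b had log2 fold changes of 0.95 ± 0.50 and 0.92 ± 0.38 and were not called, with control replicate 3 of the lower-numbered set at 139 CPM of Grin2a, in the range of libraries 4 to 6.

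Kainate subunits were divided as well. Grik5, a high-affinity subunit that needs a partner from Grik1 to Grik3, stood at 207, 223 and 229 CPM in control libraries 4 to 6, against 116, 108 and 138 CPM in control libraries 1 to 3, a log2 fold change of 0.86 ± 0.12 (SE, n = 3 each, adjusted p = 9.09e-05). Grik3 rose by 0.63. Grik1 fell by 1.07 and Grik2 by 0.45, so the partners did not move together.

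Of the metabotropic receptors in control, Grm4, a presynaptic Gi-coupled receptor, fell. It stood at 13.4, 16.7 and 13.9 CPM in control libraries 4 to 6, against 34.0, 23.1 and 24.1 CPM in control libraries 1 to 3, a log2 fold change of -0.89 ± 0.21 (SE, n = 3 each, adjusted p = 0.00431). Grm3, a receptor of astrocytes and neurons, rose by 0.47 on the log2 scale. Grm2, Grm5, Grm7 and Grm8 were not called, with log2 fold changes between 0.01 and 0.43.

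The model group showed fewer such differences. Of 40 members, 5 rose (12.5%) and 4 fell (10%) in model libraries 4 to 6 relative to model libraries 1 to 3, a total of 22.5% beside 18.7% of all genes (8.91% higher and 9.78% lower). Libraries did not overlap for 8 members with 4 to 6 higher and 10 with 4 to 6 lower, beside 18.5% and 19.4% of all genes. Gabrd stood at 87.3, 62.3 and 89.9 CPM in model libraries 4 to 6, against 36.3, 15.4 and 19.8 CPM in model libraries 1 to 3, a log2 fold change of 1.74 ± 0.49 (SE, n = 3 each, adjusted p = 0.0264). Grin2d stood at 10.3, 11.3 and 9.28 CPM in libraries 4 to 6 and 14.2, 28.0 and 30.9 CPM in libraries 1 to 3, a log2 fold change of -1.24 ± 0.23 (adjusted p = 0.00316). The sets do not overlap for either gene, but model replicate 1 lies nearest to libraries 4 to 6 in both.

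Gria3, Grik5, Grin2c and Grm3 also rose in model, by 0.64, 0.58, 0.32 and 0.75 on the log2 scale, and Grik1 and Grin3a fell by 0.82 and 0.96. The 9 members called in model were all called in the same direction in control, where they are 9 of 22 (40.9%), and they are 100% of the calls in model. Over all genes, 2678 were called in the same direction in both groups, 38% of those called in control and 77.7% of those called in model. Without model replicate 2 or model replicate 4 only 4 members were called. Gabrd and Grin3a lost their calls without any of model replicates 2, 3, 4 and 6, with adjusted p up to 0.115 and 0.0691. Gria3 lost its call without any of model replicates 2 to 5 and Grin2c without any of model replicates 2 to 6, with adjusted p up to 0.12 and 0.0999. Gabra4 had a log2 fold change of 0.69 ± 0.31 (adjusted p = 0.132), with 104, 104 and 114 CPM in model libraries 4 to 6 and 96.3, 57.7 and 45.5 CPM in model libraries 1 to 3.

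In the intervene group 1 of 40 members fell and none rose, 2.5% beside 14.9% of all genes (7.76% higher and 7.16% lower). Leaving out a library moved this count between 0 and 4. Libraries did not overlap for 3 members with 4 to 6 higher and 2 with 4 to 6 lower, beside 15.8% and 15.8% of all genes. Gabrd was among the 3, at 33.8, 47.6 and 53.8 CPM in libraries 4 to 6 and 17.9, 30.8 and 16.7 CPM in libraries 1 to 3, but was not called (log2 fold change 1.05 ± 0.48, SE, n = 3 each, edgeR adjusted p = 0.16). Gabra4 had a log2 fold change of 0.23 ± 0.31.

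**Figure D4:**
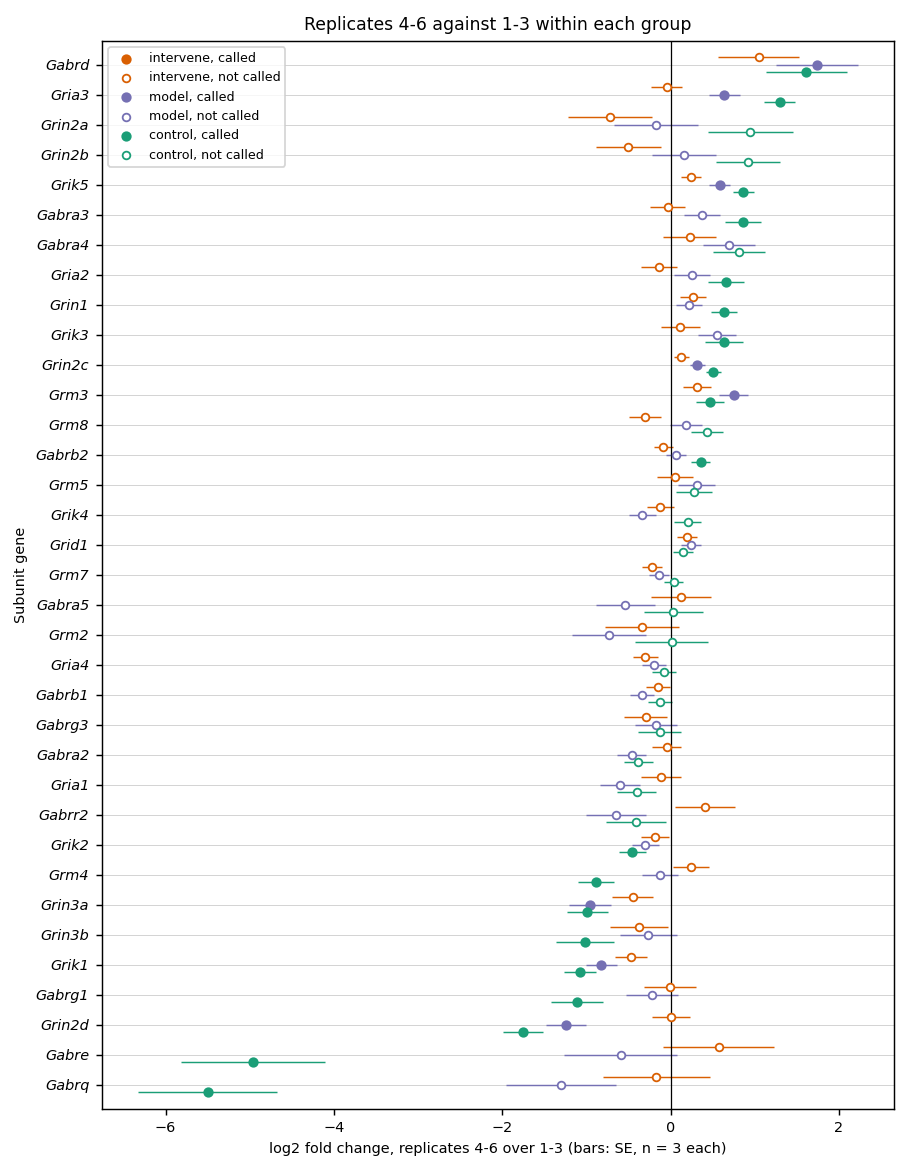
Log2 fold change of replicates 4 to 6 over replicates 1 to 3 (horizontal axis) for 35 subunit genes (vertical axis) in intervene, model and control, with bars for the SE (n = 3 each) and filled points for genes called at an adjusted p under 0.05. Filled points number 0 in intervene, 8 in model and 19 in control among the genes shown.

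Subunits typical of the thalamus were set against subunits typical of cortex and hippocampus. Of 5 thalamic subunits, 2 rose and 1 fell in control libraries 4 to 6, and 1 rose and 1 fell in model libraries 4 to 6. Those reported by name are Gabra4, Gabrd, Gabrb2 and Gria4. Gabrb2 and Gabrd rose in control and Gabrd rose in model, while the subunit that fell in both is not named here. Gria4 had a log2 fold change of -0.08 in control and was not called. Meanwhile 6 of 7 thalamic neuron genes fell in control libraries 4 to 6, 5 of 7 in model and 1 of 7 in intervene. Gabrd and, in control, Gabrb2 thus moved against the thalamic neuron genes, and the unnamed subunit moved with them. The name thalamic is prior knowledge of these subunits, but the list was chosen with earlier results of these data known. Gabrd was highest in control and model libraries 4 to 6, where Tcf7l2 was low. What the level of Gabrd reflects in these libraries was not tested.

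Of 9 cortical and hippocampal subunits (Gabra2, Gabra5, Gria1, Gria3, Grin2a, Grin2b, Grin3a, Grm2 and Grm5), Gria3 rose and Grin3a fell, in control and in model alike. Their median log2 fold change was 0.03 in control, -0.46 in model and -0.11 in intervene. At the same time 5 of 7 cortical and hippocampal neuron genes rose in control libraries 4 to 6 and 0 of 7 were called in model and in intervene. Slc17a7, the vesicular glutamate transporter of cortical neurons, stood at 1583, 1670 and 1626 CPM in control libraries 4 to 6 and 124, 53.5 and 557 CPM in control libraries 1 to 3. Striatal genes differed too: 5 of 5 rose in model libraries 4 to 6, and their sum in control replicate 1 was 1025 CPM against 78.2 CPM in the lowest of control libraries 1 to 3. Control replicate 1 also had the highest Gabrd of that set. The part of cortical and striatal tissue in the subunit differences was not tested.

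Other regional subunits were followed in the same way. In control libraries 4 to 6 both hypothalamic and brainstem subunits fell, and of the cerebellar subunits Grin2c rose and Grm4 fell. The glial pair was split, with Grm3 higher and Gabrg1 lower, while 1 of 5 astrocyte genes rose and 3 fell. Also lower there were 3 of 4 oligodendrocyte genes, 3 of 3 ependymal genes, 3 of 4 habenular genes, 3 of 4 erythroid genes and 2 of 5 inhibitory neuron genes. Their part in the subunit differences was not tested.

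The same contrast between groups was made within each replicate set. In libraries 1 to 3, no member was called between model and control, between intervene and model or between intervene and control, and neither was any gene (0% of all genes in each). Grin1 had the lowest p of the members between model and control there, at 165, 165 and 183 CPM in model libraries 1 to 3 against 128, 121 and 160 CPM in control libraries 1 to 3, a log2 fold change of 0.33 ± 0.15 (SE, n = 3 each, adjusted p = 0.842). Those libraries do not overlap. Gabra4 and Gabrd had log2 fold changes of -0.14 ± 0.31 and -0.02 ± 0.48 between model and control in that set, and -0.01 ± 0.31 and -0.13 ± 0.48 between intervene and model. Between intervene and control they had -0.15 ± 0.31 and -0.15 ± 0.48.

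In libraries 4 to 6, 2 of 40 members (5%) differed between intervene and model, beside 5.71% of all genes (3.66% higher and 2.05% lower). The shares over all genes are those of edgeR. DESeq2 called 5 members there, 1 higher and 4 lower, but its share over all genes is not given here. That count thus has no background beside it. Grin2d rose to 22.7, 23.8 and 23.5 CPM in intervene, against 10.3, 11.3 and 9.28 CPM in model, a log2 fold change of 1.18 ± 0.23 (SE, n = 3 each, adjusted p = 0.0123). Gria3 fell to 65.7, 71.2 and 74.1 CPM in intervene, against 108, 121 and 103 CPM in model, a log2 fold change of -0.66 ± 0.18 (adjusted p = 0.0464). The groups do not overlap for either gene. The call of Grin2d was lost without model replicate 4 (adjusted p = 0.0674) and that of Gria3 without any of 12 libraries, with the highest adjusted p of 0.132 without model replicate 5.

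These values stand beside a rise of 5 of 7 thalamic neuron genes in intervene libraries 4 to 6 relative to model, with Tcf7l2 higher by 2.33 on the log2 scale. Astrocyte genes rose in 3 of 5 cases, habenular genes in 2 of 4, erythroid genes in 2 of 4 and oligodendrocyte genes in 1 of 4. The part of these cell types in the subunit differences was not tested. Intervene libraries lay below all model libraries for 12 of 40 members and above them for 2, beside 13.5% and 14.5% of all genes. Among the members not called, Grik5 had a log2 fold change of -0.39 ± 0.12 (adjusted p = 0.0704). Gabra4 stood at 68.0, 88.1 and 74.9 CPM in intervene and 104, 104 and 114 CPM in model, a log2 fold change of -0.48 ± 0.31 (adjusted p = 0.374). Gabrd had a log2 fold change of -0.82 ± 0.48 (adjusted p = 0.319). For both, every intervene library was below every model library.

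The difference between the sets in the effect of intervene over model was tested itself. It was not called for any member, beside 0.352% of all genes. At an unadjusted p under 0.05 there were 4 of 40 members (10%), beside 3145 of all genes (17%). Grin2d came nearest, with a difference of 1.25 ± 0.33 on the log2 scale (adjusted p = 0.0863), and Gria3 had -0.69 ± 0.26. Without model replicate 1 the difference was called for Grin2d at 1.52 (adjusted p = 0.0118) and for Gria3 at -0.995 (adjusted p = 0.0232). For Gabra4 and Gabrd the difference was -0.47 ± 0.44 and -0.70 ± 0.68.

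**Figure D5:**
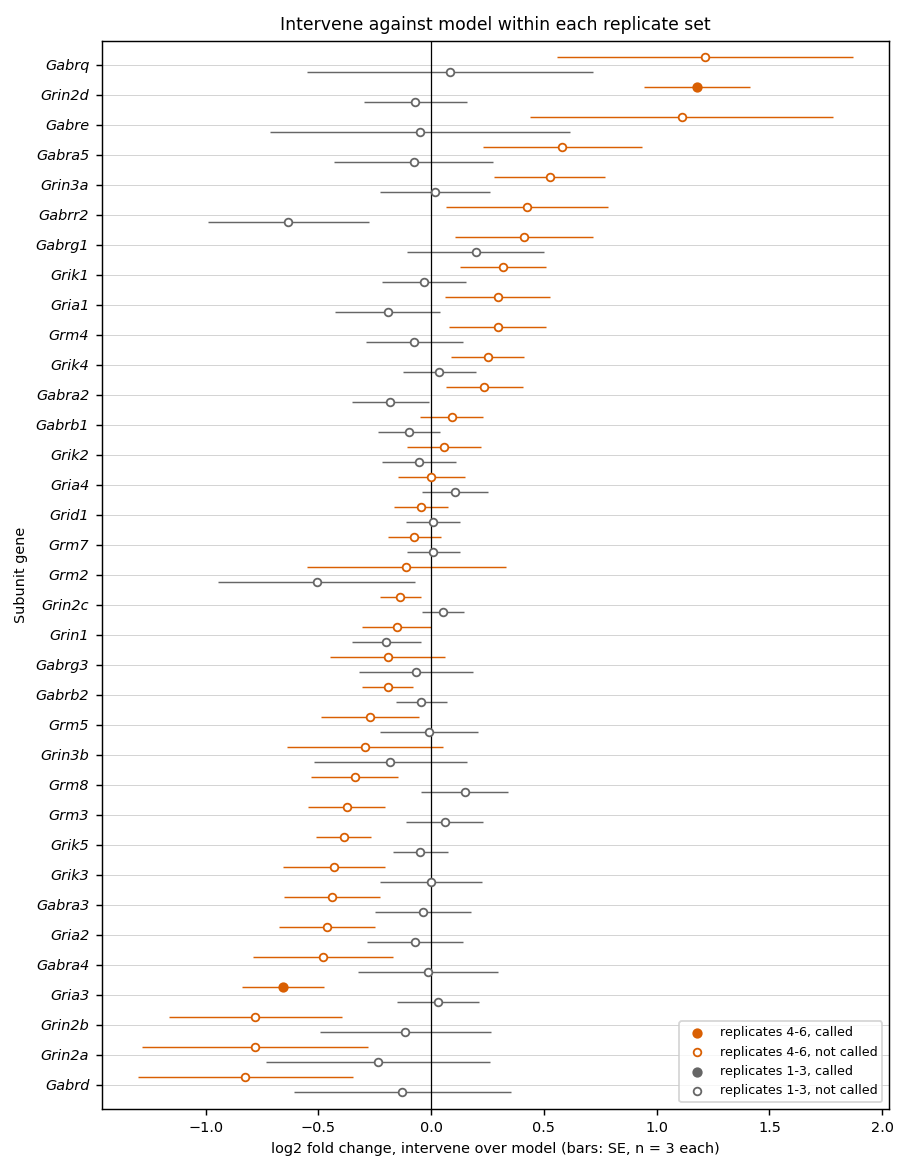
Log2 fold change of intervene over model (horizontal axis) for 35 subunit genes (vertical axis), within replicates 4 to 6 and within replicates 1 to 3, with bars for the SE (n = 3 each) and filled points for called genes. Filled points are Grin2d at 1.18 and Gria3 at -0.66 in replicates 4 to 6, and none in replicates 1 to 3.

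Between intervene and control in libraries 4 to 6, 5 of 40 members rose (12.5%) and 9 fell (22.5%), a total of 35% beside 25.9% of all genes (14.7% higher and 11.2% lower). Intervene libraries lay above all control libraries for 7 members and below them for 15, beside 21.6% and 20.7% of all genes. Without control replicate 4, 9 members were called, and Grm4 was lost at 0.74 with an adjusted p of 0.0542. The genes that rose were Gabre, Gabrq, Grik1, Grin2d and Grm4. Gabrq stood at 30.4, 8.73 and 10.4 CPM in intervene, against 0.513, 0.763 and 0.598 CPM in control, a log2 fold change of 4.68 ± 0.82 (SE, n = 3 each, adjusted p = 0.00138). Gabre rose by 4.50 ± 0.85, Grin2d by 1.5 ± 0.24, Grm4 by 0.80 ± 0.22 and Grik1 by 0.59 ± 0.19 on the log2 scale. Without intervene replicate 4 the changes of Gabrq and Gabre were 3.89 and 3.81. With log2(FPKM + 1) in limma, Gabre was not called, at 0.50 with an adjusted p of 0.0811. Thalamic neuron genes rose there in 6 of 7 cases and hypothalamic genes in 4 of 5, with summed hypothalamic levels of 52.8 to 1227 CPM in intervene and 0.609 to 1.43 CPM in control. Hcrt stood at 150, 0.134 and 0.137 CPM in intervene libraries 4, 5 and 6, and Pmch at 162, 0.403 and 0.376 CPM. Both were thus high in intervene replicate 4 only. Oxt at 440, 36.1 and 178 CPM and Avp at 472, 15.8 and 79.6 CPM were above control in each of these libraries. Choroid plexus genes rose in 4 of 4 cases, ependymal genes in 3 of 3, oligodendrocyte genes in 3 of 4, erythroid genes in 3 of 4 and inhibitory neuron genes in 3 of 5. The part of these tissues and cells was not tested.

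Among those that fell were Gabra3, Gabrb2, Gria2, Gria3, Grik5, Grin2b and Grin2c. Gabrb2 fell to 144, 148 and 162 CPM in intervene libraries 4 to 6, against 227, 207 and 198 CPM in control libraries 4 to 6, a log2 fold change of -0.48 ± 0.11 (SE, n = 3 each, adjusted p = 0.00619). Gria3 had a log2 fold change of -1.08 ± 0.18 (adjusted p = 0.000795). Gabra3 stood at 119, 70.0 and 86.6 CPM in intervene, against 169.9, 184 and 166 CPM in control, a log2 fold change of -0.91 ± 0.21 (adjusted p = 0.00609). The groups do not overlap for Gabrb2 or Gabra3. Grin2b stood at 37.6, 50.9 and 40.4 CPM in intervene and 107, 129 and 84.7 CPM in control, a log2 fold change of -1.31 ± 0.39 (adjusted p = 0.0232). The calls of Grin2b and Gria2 were lost without control replicate 4 or 5 or intervene replicate 4 or 6, with Grin2b at -1.16 and an adjusted p of 0.0852 without control replicate 5. They were also lost with no filter on low counts, with adjusted p of 0.0574 for Grin2b and 0.0546 for Gria2. Grik5 lost its call without intervene replicate 4, at -0.35 with an adjusted p of 0.0557. Of 6 pan-neuronal genes, Snap25 and Syt1 fell in the same comparison and none rose. Gabra4 had a log2 fold change of -0.74 ± 0.31 (adjusted p = 0.0956) and Gabrd of -0.71 ± 0.48.

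The effect of intervene over control differed between the sets for 8 of 40 members (20%), beside 17.9% of all genes (9.54% higher and 8.37% lower). Grin2d, Gabre, Gabrq and Grm4 had positive differences and Gria3 and Grik5 were among those with negative ones. That of Grik5 was lost without control replicate 2 (adjusted p = 0.0514) or intervene replicate 2 (adjusted p = 0.0501), and 13 members were called without control replicate 3. The comparisons with control and with model share the intervene libraries.

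Between model and control in libraries 4 to 6 no member and 0% of all genes were called. Gabrq stood at 7.48, 9.18 and 4.62 CPM in model, against 0.513, 0.763 and 0.598 CPM in control, a log2 fold change of 3.46 ± 0.81 (SE, n = 3 each, adjusted p = 0.211). Gabre had a log2 fold change of 3.39 ± 0.86 (adjusted p = 0.211). The libraries do not overlap for either gene, and DESeq2 called both, with adjusted p = 0.000229 for Gabrq and 0.0013 for Gabre. The sum of the 5 hypothalamic genes was 26.7 to 71.0 CPM in those model libraries. Gabra4 and Gabrd had log2 fold changes of -0.26 ± 0.31 and 0.11 ± 0.47. The difference of this effect between the sets was called for no member and for 0% of all genes.

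Ratios within a library, which do not depend on library scaling, were compared between the groups. None of the 12 tests in this family passed (two-sided exact permutation tests over the arrangements of 12 libraries, adjusted p 0.932 to 0.946, where the smallest possible p is 0.00216). The arrangements mixed the replicate sets, so the division between the sets adds to the spread. A test that did not pass thus does not show that a ratio was unchanged. The share of Gabra4 among alpha subunits was 15.1 ± 4.36% in intervene, 16.0 ± 4.05% in model and 16.2 ± 4.39% in control (SD, n = 6 each). In libraries 4 to 6 its mean was 17.1% in intervene, 18.7% in model and 17.6% in control. In libraries 1 to 3 these means were 13.1%, 13.3% and 14.7%. The ratio of Grin2a to Grin2b was 1.69 ± 0.31 in intervene, 1.82 ± 0.36 in model and 1.53 ± 0.41 in control, with the lowest unadjusted p of 0.203 between model and control. The Gria4 share of AMPA subunits was 11.5 ± 3.50% in intervene, 10.4 ± 1.69% in model and 11.9 ± 2.91% in control.

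Proteins that work with these receptors were read from lists. Of 14 auxiliary subunits of AMPA and kainate receptors, 5 rose and 3 fell in control libraries 4 to 6, 3 rose and 1 fell in model and 1 rose in intervene. Gsg1l, an AMPA receptor auxiliary subunit, rose by 1.63 ± 0.27 on the log2 scale in control and 1.53 ± 0.27 in model, while Cacng4 fell by 1.01 in control. Of 12 scaffold genes of the excitatory postsynapse, 9 rose in control, 4 in model and 3 in intervene, and none fell. Dlg4, the PSD-95 scaffold, rose by 0.72 ± 0.16 in control and 0.69 ± 0.16 in model. Of 8 genes of the inhibitory postsynapse, 2 rose and 2 fell in control, 2 rose and 1 fell in model, and 1 fell in intervene. Plcl1, which binds GABA-A receptors, fell by 0.43 in control and 0.75 in model. Of 7 GABA-B and glycine receptor genes, Gabbr2 rose and Glra1 to Glra4 fell in control, Glra1 fell in model and Glrb fell in intervene. Glra1 and Glra4 lay near the floor, with at most 0.603 and 0.664 CPM in any control library. Glra1 had at most 0.563 CPM in any model library.

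Many members lie beside each other in the genome, and a neighbour can share reads when strand is not used in counting. In the RefSeq annotation of GRCm38, 15 of the 45 members form 6 runs of adjacent members and 28 overlap another annotated gene. On chromosome X, Gabra3 rose and the adjacent Gabrq fell. Gabra4 overlaps Gabrb1, and Gabrd, Grik5, Grin1, Grin3a and Grin3b each overlap another protein-coding gene. Their counts may depend on how reads from the shared stretches were assigned or left out, which is not stated.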

How the data were processed

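Per the submitters' processing notes, the authors used HISAT2, featureCounts and GRCm39, but neither their versions nor the strand setting are stated. The deposited table holds raw read counts per gene and, beside them, FPKM values by the authors, which equal count per length and total for 18117 of 18117 genes counted in every library (relative tolerance 1e-06). No column was left unmapped (0 columns not used). FPKM served for levels between genes, counts for all tests.

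Counts were filtered with filterByExpr, scaled by TMM and fitted with edgeR 4.0.16 (robust quasi-likelihood, R 4.3.3), once by group and once by group and replicate set. P-values were adjusted by Benjamini-Hochberg over 18452 genes, with a threshold of 0.05. Alternatives used limma 3.58.1, DESeq2 1.42.0, other scaling, no filter, FPKM with pseudocounts of 1 and 0.1, a replicate block and leaving out each library. Totals of 28481225 to 118461420 counts set the precision, and control replicate 1 was the deepest. No 2 libraries of a group agreed within sampling noise (smallest chi-square per degree of freedom 11.4). Since the labels do not say whether libraries are separate animals, p-values measure the spread between these libraries, which may be technical.

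The members and lists were chosen with earlier results of these data known. Named members are Gabra4 and Gabrd in each comparison, with the called members, at most the 12 of lowest p, or the 4 of lowest p where none was called. Some members are counted but not reported by name here. Other genes are named from the lists. Deviations from group means correlated by 0.18 to 0.63 between same-numbered model and control libraries, over 0.1 in 6 of 6 pairs. For intervene and model this held in 5 of 6 pairs, and for intervene and control in 3 of 6. Those deviations include the division between replicate sets. From the mean of each group's replicate set, correlations ran from -0.18 to 0.24 for model and control, over 0.1 in 3 of 6 pairs, and were over 0.1 in 1 of 6 pairs for intervene and model and 0 of 6 for intervene and control. Figures were drawn with matplotlib 3.10.9 in Python 3.11.15.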

Additional observations from a re-analysis of the deposited data

Results flagged for a closer look

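In 9 of 105 groups of 6 libraries, 3 for each member reported here, a library lay far from the other 5. Chance alone gives about 1 in 20 such groups. Intervene replicate 2 had 138 CPM of Grin2a (next 74.8) and 82.5 CPM of Grin2b (next 52.8). Intervene replicate 1 had 13.8 CPM of Grm8 (next 9.2), and intervene replicate 5 had 4.46 CPM of Gabrr2 (next 2.6). Model replicate 1 had 161 CPM of Grin2a (next 96.3), and model replicate 2 had 152 CPM of Gabrb2, below the next library at 168. Control replicate 3 had 423 CPM of Gria1 (next 285), and control replicate 2 had 8.57 CPM of Gabre (next 2.81). Control replicate 1 had 12.6 CPM of Grik4, below the next library at 16.5.

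For 6 members reported here the effect of intervene over control differed between libraries 4 to 6 and libraries 1 to 3, tested as an interaction in edgeR. The differences on the log2 scale were 5.53 for Gabre (adjusted p = 0.00414), 5.33 for Gabrq (0.00466), 1.76 for Grin2d (0.00295) and 1.13 for Grm4 (0.0183). They were -1.34 for Gria3 (0.00341) and -0.62 for Grik5 (0.0215). Leaving out a library moved the difference of Gabre between 4.71 without control replicate 2 and 6.70 without intervene replicate 3, and that of Gabrq between 4.55 without intervene replicate 4 and 6.16 without intervene replicate 3. With log2(FPKM + 1) the differences of Gabre and Gabrq were 0.82 (adjusted p = 0.0603) and 1.51 (adjusted p = 0.0549).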

How the results depend on the processing

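Of 769 results under other settings, 733 kept their direction and side of the threshold, 12 lost the threshold, 10 passed it and 14 changed sign. With a library left out, the counts were 1786, 43, 9 and 34 of 1872. The causes were not tested. DESeq2 called 2 members between model and control in libraries 4 to 6 (Gabrq and Gabre), 5 between intervene and model there (1 higher, 4 lower), and 2, 1 and 15 for the differences between sets of model over control, intervene over model and intervene over control. With no filter on low counts, 1 member was called between intervene and model in libraries 4 to 6. Leaving out a library, counts ran from 15 to 24 within control, 4 to 11 within model and 0 to 4 within intervene. They ran from 0 to 2 for intervene over model and 9 to 18 for intervene over control in libraries 4 to 6. The differences between sets ran from 0 to 2 for intervene over model and 8 to 13 for intervene over control. In all other comparisons they were 0. Shares over all genes are not given for DESeq2, for no filter or with a library left out. These counts thus have no background beside them.

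Sign changes fell on Gabra4, Gabrd and the ratios, none of which was called in those comparisons. Within libraries 1 to 3, Gabrd between model and control was 0.0768 in limma-voom, 0.14 and 0.21 with FPKM pseudocounts of 1 and 0.1, and 0.0857 with the replicate block. Gabra4 between intervene and model was 0.0163, 0.0191 and 0.0236 in those 3 limma fits and 0.0821 with the replicate block. Gabrd there was 0.0666 with the block. Gabrd between intervene and control was 0.0727 and 0.13 with the FPKM pseudocounts and 0.15 with the block. The difference of model over control between sets for Gabrd was -0.0621 and -0.12 with the FPKM pseudocounts. Leaving out a library moved Gabrd between model and control from -0.15 to 0.27 over all libraries. Within libraries 1 to 3, Gabra4 ran from -0.50 to 0.21 and Gabrd from -0.46 to 0.78 for model over control. For intervene over model they ran from -0.27 to 0.35 and -0.46 to 0.31, and for intervene over control from -0.44 to 0.19 and -0.57 to 0.65. The difference of model over control between sets ran from -0.46 to 0.25 for Gabra4 and -0.67 to 0.57 for Gabrd. The log2 Gabra4 share ran from -0.17 to 0.14 for model over control, -0.24 to 0.0615 for intervene over model and -0.27 to 0.0553 for intervene over control. The Gria4 share ran from -0.0050 to 0.22 for intervene over model and -0.18 to 0.0503 for intervene over control.

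The replicate block changed no member's call. It could not be fitted between replicate sets, whose numbers differ. Gabre rests on 2 to 8 counts in control libraries 4 to 6.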
